A study of Homo sapiens with 6 samples.

Results

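RNA-seq of SKOV3, an established human ovarian cancer cell line, was used to compare untreated cells of an edited clone that kept only the HAQ allele of STING1 (HAQ/-) with untreated cells of the parent line, which carries 1 WT and 1 HAQ allele (WT/HAQ). These are 2 of the 6 libraries of the series. The other 4 are the untreated WT/- clone, which kept only the WT allele, and all 3 lines after cGAMP (10 μg/mL for 30 min, followed by 4 h of rest). Of 60498 genes in the deposited table, 15126 averaged 10 or more counts per library across all 6 and were analysed, and 15063 of them had a ratio between the untreated HAQ/- and WT/HAQ libraries. HAQ is a haplotype of STING1 that carries several amino acid substitutions. The comparison asks how the clone differed from its parent before any cGAMP was given.

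Every line has 1 library per treatment, so the untreated comparison has no replicate, no SD and no p-value. The clones were made with a lentiviral CRISPR vector that carried guides on either side of the STING1 coding sequence. After puromycin selection, single clones were grown from limiting dilutions. HAQ/- is therefore 1 clone that has been through infection, selection and cloning, and WT/HAQ is the parental population. Loss of the WT allele, the choice of clone and the passage through selection cannot be told apart in this comparison. cGAMP was given to digitonin-permeabilized cells, and the study's methods do not describe how the untreated cells were handled.

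STING1 is a receptor of the endoplasmic reticulum that binds the cyclic dinucleotide cGAMP. When bound it recruits the kinase TBK1, which activates the transcription factor IRF3 and, with it, type I interferon genes. It can also activate NF-kB, the family of factors that drives chemokines, interleukins and its own feedback inhibitors. In epithelial tumor cells such as those of the ovary, NF-kB targets are often expressed without any added stimulus.

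The libraries held between 12444822 and 17608467 rounded counts, 17608467 for untreated WT/HAQ and 17022809 for untreated HAQ/-. Normalized counts are counts divided by library size after TMM correction and brought to a common depth, the geometric mean of the 6 corrected sizes. The ratio of a gene is given as the log2 of its normalized count in HAQ/- over that in WT/HAQ, with counts under 3 set to 3, and its interval is a 95% Wilson interval that covers counting error only. The 16 ovarian and Mullerian markers all had counts in the 6 libraries, with summed levels between 25479 and 45817 normalized counts. The sum was 45817 in untreated WT/HAQ, of which KRT7 alone had 11666, and 28881 in untreated HAQ/-. Of the 16, 14 reached 10 counts in untreated WT/HAQ and 11 in untreated HAQ/-. Summed levels were 11 to 24 for 12 leukocyte markers, 32 to 112 for 8 endothelial markers and 1401 to 2308 for 10 fibroblast markers. Between 5 and 7 of the leukocyte markers were at 0 in a library.

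STING1 itself (ENSG00000184584, minus strand of chromosome 5, 139475533 to 139482935 in GRCh38) had 669 normalized counts in untreated WT/HAQ and 213 in untreated HAQ/-. The log2 ratio was -1.65 (-1.86 to -1.44). Over both treatments, in the line test described below, STING1 was lower in HAQ/- (edgeR, Benjamini-Hochberg adjusted p = 0.0273, range 5.18e-11 to 0.355 over the alternatives). The untreated WT/- clone had 353 normalized counts. With cGAMP the parent had 1780.3, the WT/- clone 553 and the HAQ/- clone 403, so HAQ/- was lowest under both treatments. In bulk RNA, fewer expressing cells and less RNA per cell cannot be told apart. Both clones were made to keep 1 STING1 allele, whereas the parent has a WT and a HAQ allele. The loss of a gene copy was thus part of the design, and its share in these levels was not tested. Of 12 other genes analysed within 500 kb of STING1, 1 was at least 2-fold lower in untreated HAQ/-, against 3.88% of all genes. This was PSD2, which was named after its values were seen and had 8 counts in WT/HAQ and 4 in HAQ/-. The median log2 ratio of these neighbours was 0.04, with a range from -1.02 to 0.53.

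Across all genes, 404 (2.68%) were at least 2-fold higher and 585 (3.88%) at least 2-fold lower in untreated HAQ/- than in untreated WT/HAQ. The median log2 ratio over all genes was -0.02, with quartiles of -0.21 and 0.19. Among the 10868 genes with at least 100 normalized counts in the higher library, 82 (0.755%) were at least 2-fold higher and 206 (1.9%) at least 2-fold lower. Protein-coding genes made up 269 of the higher and 469 of the lower genes, and long non-coding RNAs 87 and 73. The genes farthest on the lower side were led by RXFP1, the relaxin receptor, FGF5, a fibroblast growth factor, HCLS1, a cytoskeletal adaptor of blood cells, CHGA, a protein of secretory granules, and TNFAIP2, a TNF-induced gene. On the higher side the top genes included ZNF423, a zinc finger factor, and genes of the extracellular matrix (HMCN1, COL6A3, SPARC, FN1).

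**Figure D1:**
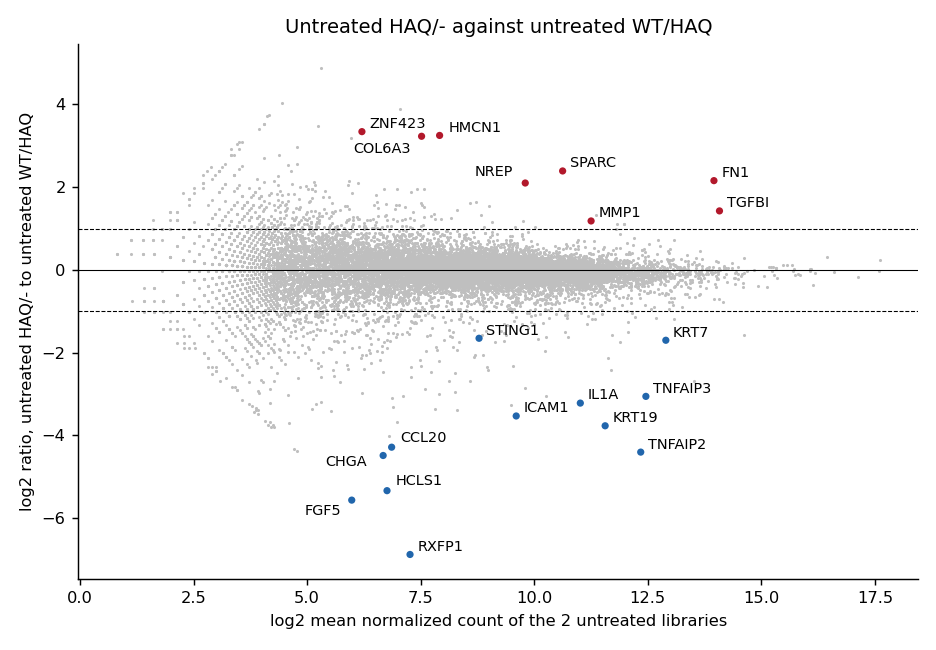
Log2 ratio of untreated HAQ/- to untreated WT/HAQ (vertical axis) against the log2 mean normalized count of both libraries (horizontal axis). Grey points are the genes with a ratio, dashed lines mark 2-fold, and colored points are named genes, with RXFP1 lowest at -6.88 (a bound, since HAQ/- had 0 counts) and ZNF423 highest among those labelled at 3.34.

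The cGAMP libraries of the same lines share no library with the untreated pair, so they give a second comparison of HAQ/- with WT/HAQ, made after treatment. In that pair 629 of 15107 genes (4.16%) were at least 2-fold higher and 1092 (7.23%) at least 2-fold lower. Of the 404 genes that were 2-fold higher without treatment, 131 (32.4%) were also 2-fold higher with cGAMP, and 282 lay on the same side of 0. Of the 585 lower genes, 299 (51.1%) were also 2-fold lower and 476 lay on the same side. Among genes with at least 100 normalized counts, 46 of 82 higher genes (56.1%) and 127 of 206 lower genes (61.7%) were again past 2-fold. All 15 of the lowest named genes were at least 2-fold lower in the cGAMP pair too, and 14 of the 15 highest were at least 2-fold higher.

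**Figure D2:**
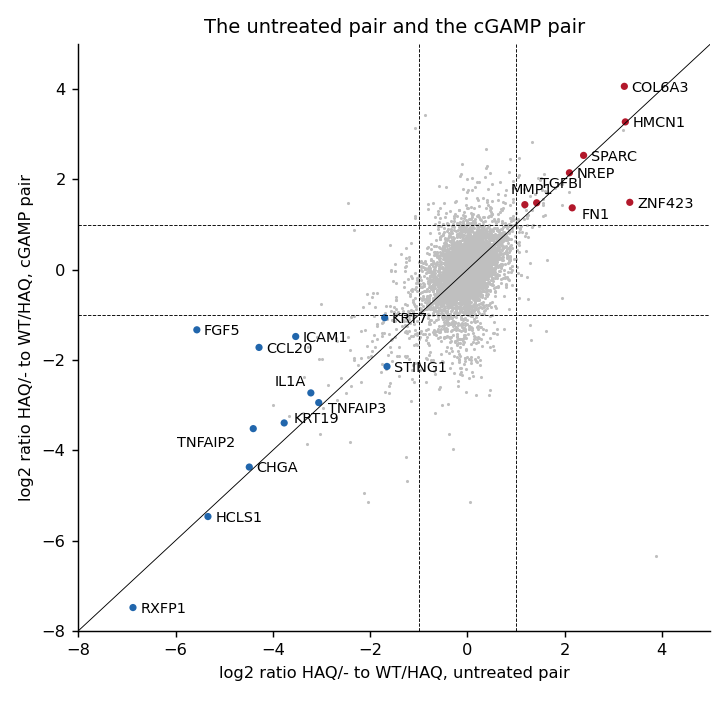
Log2 ratio of HAQ/- to WT/HAQ in the cGAMP pair (vertical axis) against that in the untreated pair (horizontal axis) for genes with at least 100 normalized counts in the higher untreated library. The solid line marks equal ratios and the dashed lines 2-fold; KRT19 lies near the line at -3.77 and -3.40, whereas FGF5 lies off it at -5.56 and -1.33.

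The difference between the lines was tested over both treatments with edgeR's quasi-likelihood test on all 6 libraries, with line and treatment as terms and 2 residual degrees of freedom. With Benjamini-Hochberg adjustment, 57 genes (0.377%) were higher and 128 (0.846%) lower in HAQ/- than in WT/HAQ. At an unadjusted p under 0.05 the numbers were 1214 and 1617. The number of calls changed with the libraries in the fit. There were 0 in either direction without the untreated WT/- library, without the cGAMP WT/- library, or with the 4 libraries of HAQ/- and WT/HAQ alone (at an unadjusted p under 0.05, 908 and 1160, 919 and 1166, and 919 and 1164), and 410 higher and 907 lower without the untreated HAQ/- library. Without either WT/HAQ library there were 8 higher, with 29 lower when the control and 30 when the cGAMP library was left out, and without the cGAMP HAQ/- library there were 69 higher and 216 lower. The test compares 2 cell lines, each with 2 cultures that were handled differently. Adjusted p-values below are from this test, with their range over 12 alternatives. The fit includes the untreated HAQ/- and WT/HAQ libraries by which the named genes were ranked. Its p-values for those genes are therefore not independent of how they were picked.

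The 12 NF-kB targets formed the group with the lowest median. All 12 had less RNA in untreated HAQ/- than in untreated WT/HAQ, and 11 were at least 2-fold lower, against 3.88% of all genes. The list, like the others, was chosen with earlier results of these data known, so its shares are descriptions. Their median log2 ratio was -2.56 in the untreated and -1.50 in the cGAMP pair, where the medians of all genes were -0.02 and -0.01. In the line test 4 of the 12 were lower in HAQ/-, against 0.846% of all genes, whereas DESeq2 called 11 lower and all 12 had an unadjusted edgeR p under 0.05. Of the 11 genes, 9 were 2-fold lower in the cGAMP pair as well. Log2 ratios of single genes in the untreated pair ran from -4.28 for CCL20 to -0.78 for RELB.

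Feedback inhibitors of NF-kB were among them. TNFAIP3 (A20, a deubiquitinase that shuts the pathway off; chromosome 6, 137867214 to 137883314) had 10044 normalized counts in untreated WT/HAQ, 1207 in untreated HAQ/- and 30554 in untreated WT/-. With cGAMP it had 3676 in WT/HAQ, 477 in HAQ/- and 22054 in WT/-. The HAQ/- clone was thus lowest and the WT/- clone highest under each treatment. The log2 ratio was -3.06 (-3.14 to -2.98) untreated and -2.95 with cGAMP (edgeR adjusted p = 0.0226, range 1.61e-26 to 0.254). NFKBIA, the inhibitor IκBα, went from 2346 to 1050.4 normalized counts, a log2 ratio of -1.16, and was lower in the line test (edgeR adjusted p = 0.0298, range 1.41e-09 to 0.155). BIRC3, a ubiquitin ligase of TNF receptor signaling, went from 1240.1 to 248, a log2 ratio of -2.32 (edgeR adjusted p = 0.0292, range 5.23e-14 to 0.147). Of the NF-kB subunits, NFKB2 and RELB were in the list, with log2 ratios of -1.04 and -0.78. The other subunits are not given here.

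The list held 5 chemokine genes, all at least 2-fold lower in the untreated pair, and none of the 5 passed the line test at an adjusted p of 0.05 (edgeR; adjusted p = 0.0899 for CXCL8, 0.0713 for CCL20, 0.111 for CXCL1, 0.0663 for CXCL2 and 0.0624 for CXCL3, with ranges from 1.40e-09 to 0.562 over the alternatives). CXCL8, the abundant neutrophil attractant, had 20328 normalized counts in untreated WT/HAQ and 3138 in untreated HAQ/-, a log2 ratio of -2.70 (-2.75 to -2.64). CCL20, the ligand of CCR6, had 250 counts in WT/HAQ and 13 in HAQ/-, a log2 ratio of -4.28 (-5.08 to -3.49). In the cGAMP pair CCL20 had 19 and 5 counts and a log2 ratio of -1.72, so its levels there were close to the floor. CXCL1, CXCL2 and CXCL3 had log2 ratios of -2.14, -2.85 and -3.27 in the untreated pair. These 3 genes are close paralogs whose reads can be split between them by the counting, so their single values are less certain than their shared direction.

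ICAM1, the adhesion molecule for leukocyte integrins (chromosome 19, 10271093 to 10286615), had 1431 normalized counts in untreated WT/HAQ, 124 in HAQ/- and 5209 in WT/-. Its log2 ratio was -3.53 (-3.78 to -3.28), and with cGAMP -1.48. In the line test ICAM1 did not pass (edgeR adjusted p = 0.0845, range 0.00711 to 0.359). IL6, a cytokine of the acute phase, had 851, 159.6 and 6939.5 normalized counts in untreated WT/HAQ, HAQ/- and WT/-. With cGAMP it had 1987, 141 and 9924 in the same order, so that the gap between HAQ/- and WT/HAQ was wider after treatment (-3.82) than before (-2.41). IL6 was lower in the line test (edgeR adjusted p = 0.0298, range 2.90e-19 to 0.20).

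**Figure D3:**
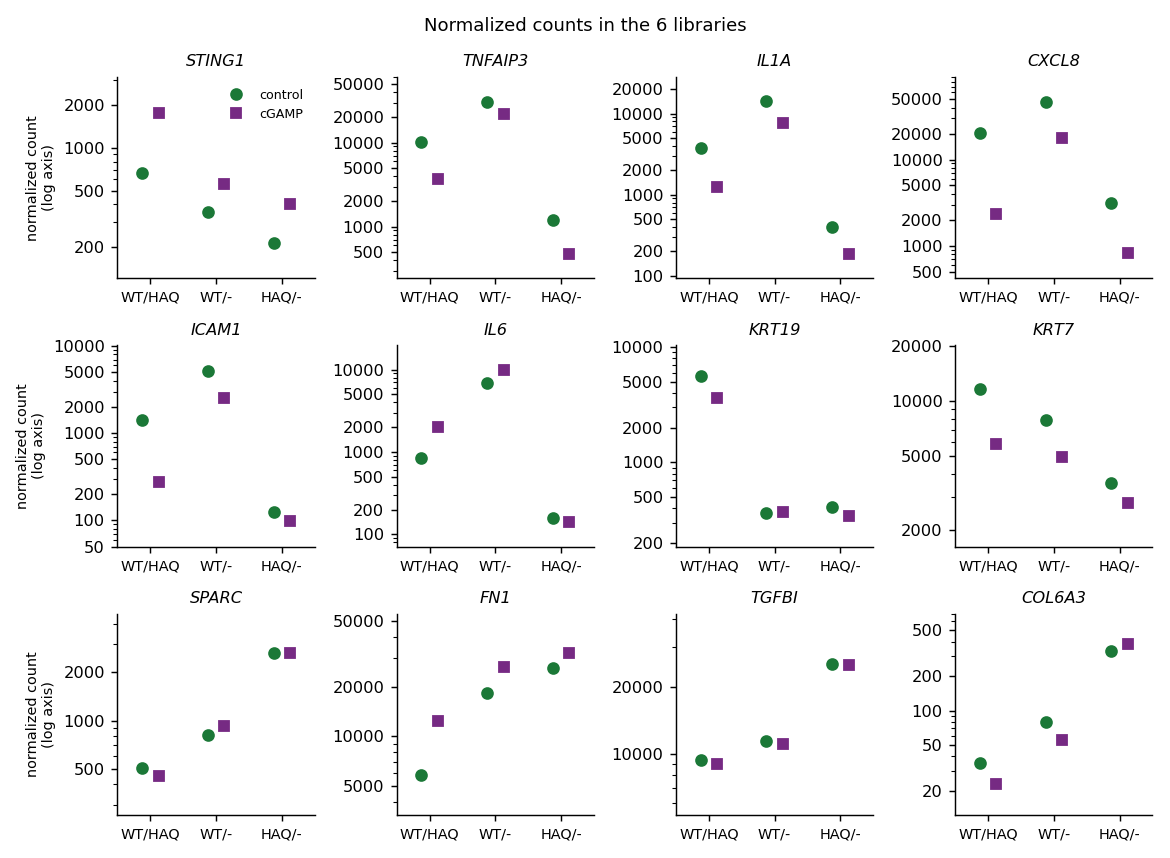
Normalized counts (log axes) of 12 genes in the 6 libraries, 1 point per library, circles for control and squares for cGAMP. TNFAIP3, IL1A, CXCL8, ICAM1 and IL6 are lowest in HAQ/- and highest in WT/-, KRT19 is low in both clones, and SPARC, FN1, TGFBI and COL6A3 are highest in HAQ/-.

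The promoters of these targets are shown because the genes lay on the same side in both pairs and NF-kB binds near the start of many of them. The letters GGNNNTTCC, a common form of the site that NF-kB dimers bind, were searched on both strands (GGAANNNCC on the other strand) from 250 bases before to 50 bases after the RefSeq start. Some strings match on both strands at the same position and were counted once. Of the 12 targets, 11 had a promoter in the RefSeq table, and 10 of these (90.9%) held a match. The list was chosen as known NF-kB targets, so this share follows from how it was made and is given as a description. Matches were found in 5498 of 27305 promoters in the table (20.1%) and in 2593 of 11182 genes analysed (23.2%). Among genes at least 2-fold lower in untreated HAQ/- the share was 103 of 351 (29.3%), and among genes at least 2-fold higher it was 48 of 235 (20.4%). Of the 15 lowest named genes, 12 had a promoter in the table and 5 a match (TNFAIP2, CCL20, ICAM1, PTX3 and CXCL3). A match is a string of letters and was not tested as a binding site. The stretches below end at the base before the RefSeq start (GRCh38.p14), read 5′ to 3′ on the strand of the gene, and have the matches in capitals. Other annotated transcripts of a gene can start elsewhere. CXCL1 is from chr4:73869273-73869392 (plus strand), CXCL2 from chr4:74099196-74099315 (minus strand), CXCL3 from chr4:74038690-74038809 (minus strand) and CXCL8 from chr4:73740449-73740568 (plus strand). CCL20 is from chr2:227813722-227813841, IL6 from chr7:22727080-22727199, TNFAIP3 from chr6:137867139-137867258 and ICAM1 from chr19:10270910-10271119, all on the plus strand.
CXCL1: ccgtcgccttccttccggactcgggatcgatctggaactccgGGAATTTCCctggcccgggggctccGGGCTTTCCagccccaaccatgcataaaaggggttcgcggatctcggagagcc
CXCL2: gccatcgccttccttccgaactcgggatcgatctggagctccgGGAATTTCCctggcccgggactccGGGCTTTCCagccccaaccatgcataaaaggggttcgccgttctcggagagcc
CXCL3: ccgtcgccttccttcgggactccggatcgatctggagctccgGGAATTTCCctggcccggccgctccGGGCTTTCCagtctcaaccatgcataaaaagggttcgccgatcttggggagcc
CXCL8: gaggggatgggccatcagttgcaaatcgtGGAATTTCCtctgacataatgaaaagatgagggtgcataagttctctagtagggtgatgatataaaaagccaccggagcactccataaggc
CCL20: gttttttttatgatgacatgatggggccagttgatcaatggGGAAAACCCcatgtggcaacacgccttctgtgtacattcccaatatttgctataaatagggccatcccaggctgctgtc
IL6: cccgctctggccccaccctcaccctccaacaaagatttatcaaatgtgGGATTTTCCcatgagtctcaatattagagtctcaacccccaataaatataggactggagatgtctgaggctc
TNFAIP3: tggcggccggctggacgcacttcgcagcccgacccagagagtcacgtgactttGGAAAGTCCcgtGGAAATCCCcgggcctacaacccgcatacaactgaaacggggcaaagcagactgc
ICAM1: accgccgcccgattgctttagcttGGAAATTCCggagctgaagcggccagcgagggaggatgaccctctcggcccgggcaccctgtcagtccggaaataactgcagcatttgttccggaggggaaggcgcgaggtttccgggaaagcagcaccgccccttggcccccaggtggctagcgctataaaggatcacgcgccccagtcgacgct

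CXCL1, CXCL2 and CXCL3 share the same pair of matched strings, and the first of them is also the string matched in CXCL8. TNFAIP3 has a pair of matches next to each other, and IL6, CCL20 and ICAM1 each have 1 in the stretch shown.

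Members of the wider cytokine list lay mostly on the lower side. Of 36 genes in the list of cytokines, chemokines and colony-stimulating factors, 29 were analysed and 28 had a ratio; 13 were at least 2-fold lower and 1 at least 2-fold higher in untreated HAQ/-, against 3.88% and 2.68% of all genes. The median log2 ratio was -0.92 untreated and -0.74 in the cGAMP pair. In the line test 8 were lower, against 0.846% of all genes. That test also uses the cGAMP libraries. CXCL10 and CXCL11, which passed it, had 8.0 and 2.7 normalized counts in untreated WT/HAQ and 3.5 and 1.7 in untreated HAQ/-. With cGAMP they had 1968 and 1249 in WT/HAQ and 9.9 and 10.9 in HAQ/-, so their calls rest on the cGAMP pair. By role, 5 of 9 interleukins, both colony-stimulating factors and 2 of 3 TNF family members were at least 2-fold lower in the untreated pair. The 8 further chemokines were split, with 4 below and 3 above 0 and 1 at least 2-fold lower. IL1A, an alarmin of epithelial cells, had 3735 normalized counts in untreated WT/HAQ, 401 in HAQ/- and 14133 in WT/-. Its log2 ratio was -3.22 (-3.36 to -3.08) untreated and -2.73 with cGAMP (edgeR adjusted p = 0.0137, range 1.01e-36 to 0.269). IL1B, which lies next to it on chromosome 2, had 411, 40.1 and 2101 in the same order, a log2 ratio of -3.36 (edgeR adjusted p = 0.0192, range 3.36e-16 to 0.392). The order of the lines was the same for both genes.

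CSF1, the growth factor of macrophages, had 5517 normalized counts in untreated WT/HAQ and 1039.9 in HAQ/-, a log2 ratio of -2.41 (-2.50 to -2.32), and was lower in the line test (edgeR adjusted p = 0.0302, range 6.97e-14 to 0.145). CSF2, the growth factor of granulocytes and macrophages, had 43 and 9 counts and a log2 ratio of -2.28 (-3.29 to -1.26), and was listed at 0 in both cGAMP libraries. TNF went from 661 to 154 normalized counts, a log2 ratio of -2.10 (edgeR adjusted p = 0.0383, range 3.84e-09 to 0.488). Some cytokines did not share this pattern. INHBA, a TGF-beta family ligand, had a log2 ratio of -1.07 in the untreated and 1.19 in the cGAMP pair, and TGFB1 was above 0 in both, at 0.55 and 0.50.

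The region 4q13.3 of chromosome 4, from 73571550 to 74794523, holds the CXC chemokine genes and, farther along, genes of ERBB ligands. Of 11 genes analysed there, 6 were at least 2-fold lower in untreated HAQ/-, against 3.88% of all genes. Beside CXCL8, CXCL1, CXCL3 and CXCL2 these were EREG and AREG, ligands of the EGF receptor. The chemokine genes were already counted among the NF-kB targets, and the region is none of the gene lists. Its share is therefore a description and not a separate result. PF4V1, a platelet factor variant, was on the higher side with 2 and 13 counts. EREG had 482 normalized counts in untreated WT/HAQ, 75 in HAQ/- and 80.3 in WT/-. Its log2 ratio was -2.68 untreated and -2.88 with cGAMP (edgeR adjusted p = 0.0089, range 8.52e-19 to 0.107). AREG had 293, 64.6 and 90.5 in the same order. Both ligands were therefore low in both clones, whereas CXCL8, CXCL1, CXCL2 and CXCL3 were low in HAQ/- and high in WT/-. MTHFD2L, an enzyme of folate metabolism between them, and BTC, another ERBB ligand at the far end, had log2 ratios of -0.24 and -0.18.

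**Figure D4:**
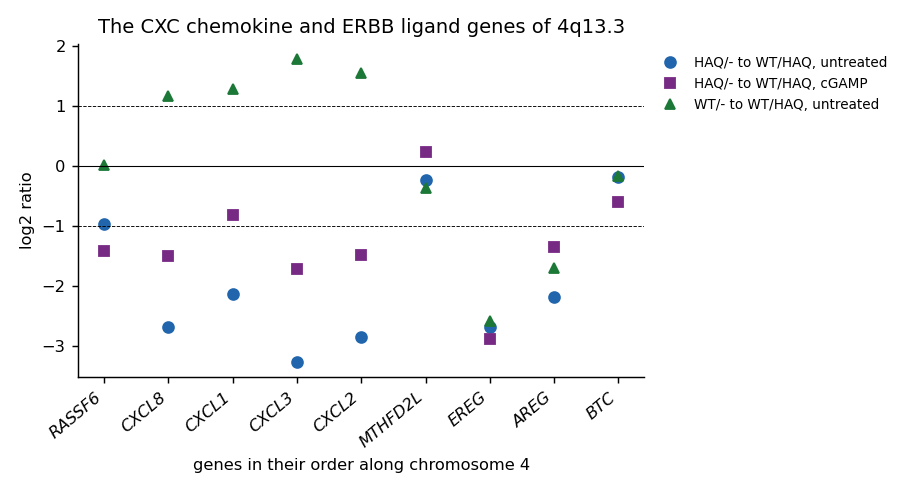
Log2 ratios (vertical axis) of the genes of 4q13.3 with at least 30 counts in an untreated library of HAQ/- or WT/HAQ, in their order along chromosome 4. Circles are HAQ/- to WT/HAQ untreated, squares the same with cGAMP and triangles WT/- to WT/HAQ untreated; CXCL8, CXCL1, CXCL3 and CXCL2 lie between -2.14 and -3.27 (circles) and EREG at -2.68 beside -2.59 for WT/-.

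Immediate-early genes, which cells switch on within minutes of a stimulus, included a few that were lower. Of 20 genes, 17 were below 0, 4 at least 2-fold lower and 0 at least 2-fold higher, against 3.88% and 2.68% of all genes. The median log2 ratio was -0.58 untreated and -0.36 in the cGAMP pair, and 2 of 20 were lower in the line test, against 0.846% of all genes. All 12 transcription factors of the list were below 0, as were 5 of 8 feedback regulators. DUSP1, a phosphatase of MAP kinases, had 2569 normalized counts in untreated WT/HAQ and 833 in HAQ/-, a log2 ratio of -1.62 untreated and -1.88 with cGAMP (edgeR adjusted p = 0.00947, range 3.24e-24 to 0.116). ATF3, FOSB and FOS had log2 ratios of -1.26, -1.12 and -1.08.

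Most genes of the interferon pathway were within 2-fold before treatment, with more of them below 0 than above. The 38 genes of the study's ISG signature, a list it took from another study, had a median log2 ratio of -0.09, with 25 below and 13 above 0 and 2 at least 2-fold lower. In the cGAMP pair the median was -1.09, with all 38 below 0. Of 26 receptors, JAK kinases, STAT and IRF factors and their inhibitors, 20 were below and 6 above 0 untreated, with a median log2 ratio of -0.20, and 2 were at least 2-fold lower and 0 higher, against 3.88% and 2.68% of all genes. All 5 receptor chains and 9 of 10 factors were below 0. STAT5A had 259.9 normalized counts in untreated WT/HAQ, 51.5 in HAQ/- and 177 in WT/-, and was lower in the line test (edgeR adjusted p = 0.017, range 9.74e-10 to 0.145). IRF1 had 3252, 1307 and 10982 in the same order, a log2 ratio of -1.32, and did not pass (edgeR adjusted p = 0.0993, range 6.91e-04 to 0.636). IFNGR2, a chain of the interferon gamma receptor, was at -0.83 and was lower in the line test (edgeR adjusted p = 0.0292, range 4.86e-05 to 0.206). Its partner IFNGR1 was at -0.80. Other members within 2-fold included the receptor chain IFNAR1 at -0.01, the kinases JAK1 at -0.24 and TYK2 at 0.18, and the factors STAT2 at -0.07 and IRF9 at 0.01.

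The machinery around STING1 was likewise close to even. Of 40 genes that sense DNA, move or break down cGAMP, or regulate STING1, 22 were below and 18 above 0, the median was -0.03, and 2 were at least 2-fold lower, STING1 and SLC46A3. SLC46A3, a lysosomal transporter, had 94.6 normalized counts in untreated WT/HAQ and 40.1 in HAQ/-, a log2 ratio of -1.24 (-1.73 to -0.74), and -2.20 with cGAMP (edgeR adjusted p = 0.0662, range 0.00182 to 0.267). The kinase TBK1 had a log2 ratio of -0.42, IRF3 -0.19, the hydrolase ENPP1 0.13 and the DNA sensor IFI16 -0.08. The cGAMP synthase CGAS had from 0 to 4 counts in a library and got no ratio. The 20 genes of MHC class I presentation had a median of -0.15 untreated and -0.55 in the cGAMP pair, with 0 past 2-fold in the first and 3 lower in the second, against 7.23% of all genes lower in that pair. Among 244 genes of the study's pattern recognition pathways with a ratio, 165 were below 0, 31 were at least 2-fold lower and 3 higher, against 3.88% and 2.68% of all genes, and 14 of the 31 were among its 35 analysed effectors, the class that holds many of the cytokines above.

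**Figure D5:**
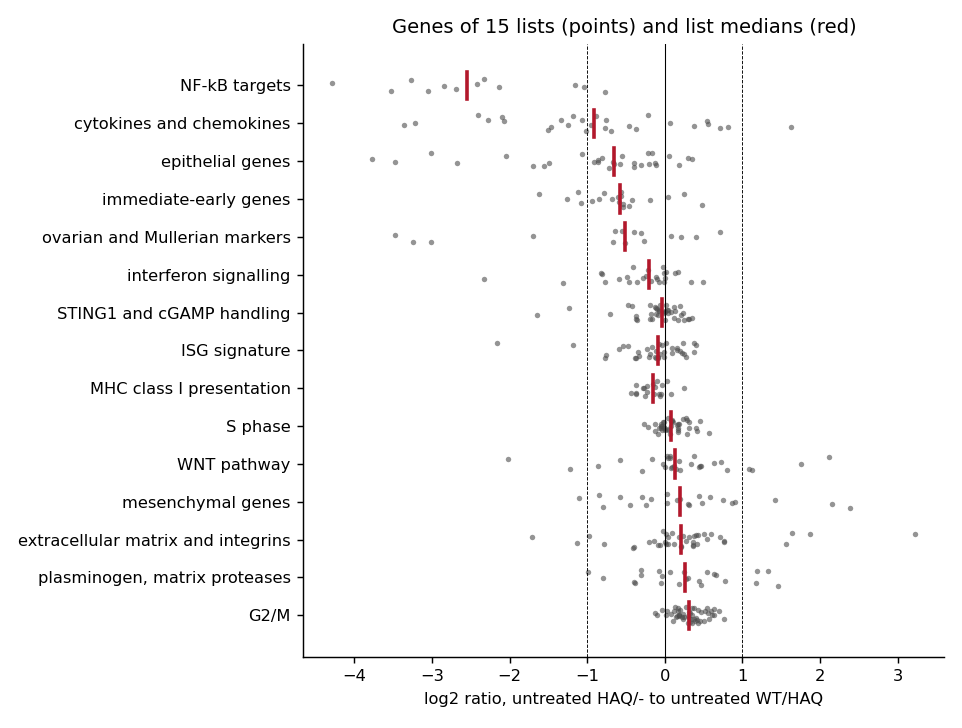
Log2 ratio of untreated HAQ/- to untreated WT/HAQ (horizontal axis) for the genes of 15 lists, 1 point per gene, with list medians as red bars and dashed lines at 2-fold. The NF-kB targets have the lowest median (-2.56), the G2/M genes the highest (0.32), and the ISG signature lies at -0.09.

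Some genes of epithelial identity were lower in HAQ/-. Of 30 analysed, 26 were below 0, 9 at least 2-fold lower and 0 higher, against 3.88% and 2.68% of all genes. The medians were -0.66 untreated and -0.71 in the cGAMP pair. In the line test 8 were lower, against 0.846% of all genes. KRT19, a keratin of simple epithelia (chromosome 17, 41523617 to 41528308), had 5629 normalized counts in untreated WT/HAQ, 414 in HAQ/- and 364 in WT/-. With cGAMP it had 3605, 343 and 369 in the same order, so both clones were low under both treatments. The log2 ratio was -3.77 (-3.90 to -3.63), with edgeR adjusted p = 0.0089 (range 2.17e-58 to 0.104). Keratins have many pseudogenes that can share reads.

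KRT7, a keratin of ductal and Mullerian epithelia, had 11666 normalized counts in untreated WT/HAQ, 3589.9 in HAQ/- and 7879 in WT/- (log2 ratio -1.70, edgeR adjusted p = 0.0366, range 3.06e-09 to 0.331). ELF3, an epithelial transcription factor, had 666, 104 and 2363 in the same order, so that unlike KRT19 it was highest in WT/-. EPCAM, the epithelial adhesion molecule, had a log2 ratio of -0.81 and was lower in the line test (edgeR adjusted p = 0.0319, range 0.00143 to 0.19), and E-cadherin (CDH1) had a log2 ratio of -0.13. ESRP2, a splicing regulator of epithelial cells, had 126 and 30.5 normalized counts and a log2 ratio of -2.05 (-2.58 to -1.52). Among 15 analysed ovarian and Mullerian markers, 4 were at least 2-fold lower and 0 higher, against 3.88% and 2.68% of all genes. These were KRT7 and the low-level genes MUC16 (CA125), MSLN (mesothelin) and WFDC2 (HE4), with 33, 75 and 48 counts in untreated WT/HAQ and 1, 8 and 6 in HAQ/-. The lineage factor PAX8 had a log2 ratio of -0.55 untreated and 0.74 in the cGAMP pair, so the marker list did not move as 1 block.

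Several of the 15 lowest genes belong to none of these groups. RXFP1 had 348 counts in untreated WT/HAQ, 0 in HAQ/- and 3 in WT/-, which with 3 counts as the floor in HAQ/- is at least 117.5-fold lower. With cGAMP it had 619, 3 and 21 counts in the same order, so the parent was far above both clones under both treatments (edgeR adjusted p = 0.0168, range 2.73e-07 to 0.168). HCLS1 had 239, 6 and 6 counts untreated, and CHGA 221, 10 and 18, again low in both clones. SPON1, a matrix protein first described in the spinal cord, had 238, 15 and 30. All 3 were lower in the line test, with log2 ratios of -5.33, -4.48 and -4.01 (edgeR adjusted p = 0.00947, 0.0248 and 0.0326, with ranges of 1.24e-15 to 0.107, 7.36e-12 to 0.107 and 6.31e-09 to 0.165).

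TNFAIP2 had 9930.4 normalized counts in untreated WT/HAQ, 469 in HAQ/- and 26584 in WT/-, a log2 ratio of -4.40 (-4.53 to -4.28; edgeR adjusted p = 0.0108, range 3.46e-55 to 0.196). It followed the NF-kB targets in the order of the lines, with WT/- highest. PTX3, a soluble pattern recognition protein that IL1 and TNF induce, had 573, 55.0 and 1380.2 in the same order (log2 ratio -3.38, edgeR adjusted p = 0.0164, range 9.76e-19 to 0.455). FGF5 had 140 counts in untreated WT/HAQ and 3 in HAQ/-, a log2 ratio of -5.56 (-7.13 to -3.99). With cGAMP WT/HAQ had 29 counts and HAQ/- 10, a log2 ratio of -1.33, and FGF5 did not pass the line test (edgeR adjusted p = 0.153, range 0.00332 to 0.348). MARVELD1, a membrane protein, and KRT17, a keratin of stressed epithelium, had log2 ratios of -3.68 and -3.31 and were lower in the line test (edgeR adjusted p = 0.0192 and 0.0116, ranges 2.11e-14 to 0.107 and 8.32e-34 to 0.562).

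On the higher side stood single genes of the extracellular matrix and of mesenchymal cells. Of 41 matrix and integrin genes with a ratio, 30 were above 0, 4 at least 2-fold higher and 2 at least 2-fold lower, with a median of 0.21. Of 23 mesenchymal genes with a ratio, 15 were above 0, 3 at least 2-fold higher and 1 lower, with a median of 0.19, against 2.68% of all genes that were 2-fold higher and 3.88% lower. In the line test 3 matrix and 4 mesenchymal genes were higher, against 0.377% of all genes. Of the 14 collagen genes, 11 were above 0.

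SPARC, a collagen-binding glycoprotein (chromosome 5, 151661096 to 151686975), had 506 normalized counts in untreated WT/HAQ, 2652 in HAQ/- and 817 in WT/-. With cGAMP the values were 452, 2616 and 927, close to the untreated ones in each line. The log2 ratio was 2.39 (2.26 to 2.52; edgeR adjusted p = 0.0089, range 3.91e-42 to 0.104). FN1, fibronectin, had 5822, 25967 and 18306 normalized counts in untreated WT/HAQ, HAQ/- and WT/-, so the parent was lowest (log2 ratio 2.16, edgeR adjusted p = 0.0336, range 6.52e-12 to 0.28). TGFBI, a matrix protein induced by TGF-beta, had 9384, 25209 and 11432 (log2 ratio 1.43, edgeR adjusted p = 0.0089, range 2.99e-26 to 0.107). Here HAQ/- alone stood apart, since WT/- was within a log2 ratio of 0.28 of the parent.

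COL6A3, a chain of collagen VI, had 35.4 normalized counts in untreated WT/HAQ, 332 in HAQ/- and 80.3 in WT/- (log2 ratio 3.23, edgeR adjusted p = 0.0164, range 9.02e-19 to 0.13). HMCN1, hemicentin, had 46.0, 437 and 112 (log2 ratio 3.25, edgeR adjusted p = 0.0089, range 4.23e-27 to 0.104). COL1A2, a chain of collagen I, had a log2 ratio of 1.63, with 1.35 in the WT/- clone. The other chains COL6A1 and COL6A2 had log2 ratios of 0.40 and 0.42, and COL1A1 0.31, so that 1 chain of each collagen stood out. Vimentin (VIM), the most abundant mesenchymal filament, had 80299 and 98892 normalized counts, a log2 ratio of 0.30. ZEB2, a repressor of epithelial genes, was on the lower side at -1.11, and the related ZEB1 at 0.44.

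Single matrix proteases were higher as well. Of 24 genes of the plasminogen system and matrix proteases, 15 were above and 9 below 0, with a median of 0.26, and 4 were at least 2-fold higher and 0 lower, against 2.68% and 3.88% of all genes. All 4 were again at least 2-fold higher in the cGAMP pair, where 8 of the list were 2-fold higher and 3 lower, against 4.16% and 7.23% of all genes in that pair. The line test called 5 higher, against 0.377% of all genes. MMP2, a gelatinase, had 1504 normalized counts in untreated WT/HAQ, 3782 in HAQ/- and 409.7 in WT/-. MMP1, the interstitial collagenase, had 1491, 3385 and 12916 in the same order. The clones thus stood on opposite sides of the parent for MMP2 and on the same side for MMP1. The log2 ratios of HAQ/- to WT/HAQ were 1.33 and 1.18 (edgeR adjusted p = 0.0164 and 0.0192, ranges 6.14e-14 to 0.116 and 3.84e-14 to 0.145). MMP10 and ADAM19 had log2 ratios of 1.45 and 1.17. MMP1 and MMP10 lie close together on chromosome 11, at 102789401 to 102798160 and 102770502 to 102780628.

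The remaining highest genes were of mixed function. ZNF423 had 15 counts in untreated WT/HAQ, 154 in HAQ/- and 82 in WT/-, a log2 ratio of 3.34 (2.58 to 4.10), which was 1.49 in the cGAMP pair (edgeR adjusted p = 0.0901, range 9.86e-04 to 0.407). SLC14A1, a urea transporter, had 14, 130 and 11 counts in the same order, so that only HAQ/- was high (edgeR adjusted p = 0.0357, range 1.88e-05 to 0.165). NREP, a neuronal regeneration related protein, had 338 and 1447 normalized counts (log2 ratio 2.10, edgeR adjusted p = 0.0089, range 2.92e-35 to 0.104). STARD4-AS1, at a log2 ratio of 2.10, lies from 111510396 to 111739726 on the plus strand of chromosome 5 and overlaps NREP on the minus strand, from 111662621 to 111997464. Whether the counting used strand is not given in the sources used here, so reads of this pair cannot be told apart. TMTC1, PCLO, ZFHX4 and ATP10A had log2 ratios of 1.95, 1.95, 1.81 and 1.64. ATP10A was the exception among the 15 in the cGAMP pair, at 0.22.

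Among signaling pathways the differences lay in single genes. Of 30 WNT pathway genes, 23 were above 0, 4 at least 2-fold higher and 2 at least 2-fold lower, against 2.68% and 3.88% of all genes. In the cGAMP pair 2 of the 4 were again 2-fold higher and 1 of the 2 again 2-fold lower. None of the 30 passed the line test with edgeR, where an unadjusted p under 0.05 held for 8 on the higher and 2 on the lower side, and 4 were higher with DESeq2. AXIN2, a direct WNT target, had 15 counts in untreated WT/HAQ and 66 in HAQ/-, a log2 ratio of 2.12 (1.32 to 2.92) and 1.95 with cGAMP. TCF7, another target, had log2 ratios of 1.08 untreated and 0.91 with cGAMP. The ligand WNT10A had -2.02 and -0.74, and the ligand WNT6 1.12 and -0.29, so that WNT6 lay on opposite sides in the pairs. In the TGF-beta and BMP pathway 1 of 26 genes was at least 2-fold higher and 2 lower. LTBP1, which stores latent TGF-beta in the matrix, had a log2 ratio of 1.10 (edgeR adjusted p = 0.0192, range 1.70e-10 to 0.189), and the inhibitors of BMP and of differentiation BAMBI and ID3 -1.20 and -1.17. HES4, a Notch-family effector, had a log2 ratio of -1.41.

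Cell cycle genes were all within 2-fold in the untreated pair. Of 52 G2/M genes, 49 were above 0 and 0 past 2-fold, with medians of 0.32 untreated and 0.29 in the cGAMP pair. Of 41 S phase genes, 26 were above and 15 below 0 untreated and 12 above and 29 below 0 with cGAMP, with medians of 0.08 and -0.14. MKI67, a marker of cycling cells, had a log2 ratio of 0.64 and the kinase AURKA 0.56. Of the G2/M genes, 1 was higher in the line test, CENPF, named after its values were seen, at 0.69 (edgeR adjusted p = 0.0366, range 1.51e-05 to 0.20). DESeq2 called 7 higher, and 29 were higher in edgeR before adjustment (p under 0.05). Of 21 p53 targets 2 were at least 2-fold lower, against 3.88% of all genes, GADD45A at -1.50 and BBC3 at -1.24. In the cGAMP pair they were at -0.03 and -3.70, and neither passed the line test (edgeR adjusted p = 0.301 and 0.0927, ranges 0.0269 to 0.729 and 2.23e-04 to 0.482). The 1 target that passed was higher, TP53I3 at 0.94 (edgeR adjusted p = 0.0357, range 1.12e-04 to 0.184).

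The other lists held few large differences, set against 2.68% of all genes at least 2-fold higher and 3.88% lower. None of the 32 NRF2 targets and glutathione genes was at least 2-fold lower and 1 was higher. The 30 sterol and fatty acid genes had a median log2 ratio of -0.14, with 23 below and 7 above 0. In the cGAMP pair their median was 0.19, with 9 below and 21 above 0. In the untreated pair 1 of 27 stress response genes was lower (PPP1R15A at -1.16). Of 29 hypoxia and glycolysis genes 1 was lower (ALDOC at -2.11), and of 15 BCL2 family genes 2 (BBC3 and BMF, the second at -1.17). Of 16 aldehyde dehydrogenases 1 was higher and 1 lower (ALDH1L2 at 1.04 and ALDH1A3 at -1.11), and of 23 HOX genes 2 and 2 (HOXA5 at 1.82 and HOXA3 at 1.27, and, on the lower side, HOXD1 at -1.68 and HOXD11 with 15 and 4 counts). Of 4 analysed metallothioneins 2 were lower, MT1G with 37 and 1 counts (log2 ratio with its floor -3.64) and MT1F at -1.29, close paralogs whose reads can be shared. Of 16 ERBB receptors, ligands and neighbours on 17q12, 2 were lower, EREG and AREG, and of 4 analysed cancer-testis antigens 1 was lower. In the cGAMP pair HOXA5 was at -0.31, HOXA3 at 0.94, ALDH1L2 at -0.17, ALDH1A3 at -0.68, BMF at -0.44 and MT1F at 0.07, none of them 2-fold apart. MT1G was at -0.28 there, with 7 counts in WT/HAQ and 5 in HAQ/-. PPP1R15A, ALDOC and HOXD1 were 2-fold lower there too, at -2.90, -3.22 and -3.30. Of the non-epithelial markers, 1 of 6 fibroblast markers with a ratio was at least 2-fold higher (COL1A2) and KDR, an endothelial receptor with 54 and 9 counts, was at -2.60, and at -0.68 with cGAMP.

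Side by side, the edited clones did not take the same side of the parent for each gene. Both are compared with the same untreated WT/HAQ library, so the values below are not independent. The NF-kB targets had medians of -2.56 in HAQ/- and 1.56 in WT/-, and the cytokines -0.92 and 0.82. RXFP1, HCLS1, CHGA, SPON1 and KRT19 had log2 ratios of -6.78, -5.24, -3.54, -2.91 and -3.95 in WT/-. SPARC, FN1, COL6A3 and HMCN1 had 0.69, 1.65, 1.18 and 1.28.

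By chromosome, medians of the log2 ratio lay between -0.14 (chromosome 14) and 0.07 (chromosome 7), so no whole chromosome stood far from 0. In 363 windows of 40 neighbouring genes the medians ran from -0.34 to 0.24, with 12 windows under -0.2 and 5 over 0.2. The lowest window, at the start of chromosome 18 from 116842 to 12432238, had a median of -0.34 in the untreated pair and -0.34 in the cGAMP pair, with 34 of 40 genes below 0. Its median in untreated WT/- was -0.40.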

How the data were processed

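RNA from 6 SKOV3 cultures (3 lines, each untreated or given cGAMP) was sequenced for the study as poly(A) mRNA libraries. The submitters' processing notes name STAR, RSEM and the builds GRCh38 and hg38, with no version used here. The authors deposited 1 table of expected counts per gene and library, as estimated by RSEM, with reads of multiple origin split between genes. Values were rounded to whole counts. Genes with a mean of at least 10 counts over the 6 libraries were analysed (15126 of 60498).

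Library sizes were scaled by TMM (edgeR 4.0.16 in R 4.3.3), with factors between 0.940 and 1.052. Log2 ratios between library pairs were computed with counts under 3 set to 3, and genes at 3 counts or fewer in both libraries got no ratio. With 1 library per condition no test was possible within a treatment. The line test was edgeR's quasi-likelihood test on the rounded counts, with line and treatment as terms, all 6 libraries and Benjamini-Hochberg adjustment at 0.05. It was tested on simulated data first. DESeq2 1.42.0 served as an alternative. Tables and plots were made with matplotlib 3.10.9, scipy 1.17.1, pandas 2.3.3 and numpy 2.4.6 under Python 3.11.15.

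Named genes were STING1, the 15 genes with the highest and the 15 with the lowest untreated ratio among those with at least 100 normalized counts in the higher library, and up to 4 members per gene list that were at least 2-fold apart with at least 30 normalized counts. For the STING1 and interferon lists members within 2-fold were also named. Some genes that this rule names are not reported here. Other list members given as context were chosen after their values were seen. The comparison, the 32 gene lists and the tests were chosen with earlier results of these data known. Gene positions are from GENCODE release 44 (GRCh38), which held 14995 of the genes analysed, and promoter sequences are from RefSeq (GRCh38.p14). Alternatives were total-count or DESeq2 scaling, a mean count of at least 1 or 50, a floor of 10, thresholds of 1.5-fold and 4-fold, a fit without the treatment term, a fit on 4 libraries, and leaving out each library in turn.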

Additional observations from a re-analysis of the deposited data

Results flagged for a closer look

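Of 79 genes named for their untreated ratio or as the targeted gene, 13 had the edited clones on opposite sides of the WT/HAQ parent. HAQ/- and WT/- each lay at least 2-fold from the parent in both the untreated and the cGAMP pair. The share over all genes was not counted. Some genes outside the 79 lay the same way, such as IL6 (-2.41 in HAQ/- and 3.03 in WT/- untreated) and TNF (-2.10 and 2.80). The difference between the clones was not tested, and both are set against the same parent library. Among inflammatory genes the untreated log2 ratios to WT/HAQ were -4.40 in HAQ/- and 1.42 in WT/- for TNFAIP2, -4.28 and 2.63 for CCL20, and -3.53 and 1.86 for ICAM1. They were -3.36 and 2.35 for IL1B, -3.27 and 1.79 for CXCL3, -3.22 and 1.92 for IL1A, and -3.06 and 1.61 for TNFAIP3. CXCL2 had -2.85 and 1.56, the epithelial factor ELF3 -2.68 and 1.83, and CSF1 -2.41 and 2.23. The p53 target BBC3 had -1.24 and 2.21, and the immediate-early factor FOS -1.08 and 1.04. The gelatinase MMP2 had the opposite signs, at 1.33 in HAQ/- and -1.88 in WT/-.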

How the results depend on the processing

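The main limit is 1 library per condition: no untreated value has a replicate, and at low counts the counting interval is wide (CSF2, with 43 and 9 counts, had a log2 ratio between -3.29 and -1.26). The counts of 404 higher and 585 lower genes became 824 and 1148 with a mean count of at least 1, 119 and 251 with at least 50, 1115 and 1299 at 1.5-fold, and 64 and 135 at 4-fold, and stayed within 1.5 times under the other 5 alternatives of 9. The line test's 57 higher and 128 lower genes became 182 and 380 with DESeq2, 111 and 258 with a mean count of at least 1, 6 and 8 without the treatment term, and 0 and 0 with only the 4 libraries of HAQ/- and WT/HAQ (919 and 1164 at an unadjusted p under 0.05). Leaving out 1 library at a time gave 0 to 410 higher and 0 to 907 lower genes. The number was 0 in both directions without either WT/- library and highest without the untreated HAQ/- library. The cause was not tested. The log2 ratio of STING1 (-1.65 to -1.58) and the median of the ISG signature (-0.10 to -0.02) moved little under every alternative run. With total counts only, the medians of chromosomes 2, 6, 10 and 11 went from -0.06, -0.06, -0.04 and -0.07 to 0.00859, 0.00573, 0.0291 and 0.000834. Some other medians also crossed 0 over the alternatives, such as those of chromosomes 3 (-0.01 to 0.06), 12 (-0.02 to 0.05) and 20 (-0.02 to 0.05). The medians of the STING1 list (-0.03 to 0.04) and the TGF-beta list (-0.04 to 0.02) crossed it too. With a floor of 10 counts the log2 ratios of FGF5, RXFP1 and MT1G were -3.83, -5.14 and -1.91. Of the named genes' alternative values, 301 moved by less than their counting interval and 11 by more. No paired analysis was possible because every library has the same replicate number, which pairs nothing beyond the treatment, and treatment is already a term of the line test.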

Other observations

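The genes here were chosen after their values were seen and stand for no group. C3, the central complement component, had 2182.3 normalized counts in untreated WT/HAQ, 266 in HAQ/- and 11817 in WT/-, and was lower in the line test (edgeR adjusted p = 0.0089, range 1.05e-51 to 0.107). Ceruloplasmin (CP), a copper-carrying ferroxidase, had 544, 69.8 and 548 in the same order, so WT/- was level with the parent (edgeR adjusted p = 0.0089, range 9.00e-30 to 0.104). SOD2, the mitochondrial superoxide dismutase that NF-kB induces, had 37798, 12766 and 76730.2 (edgeR adjusted p = 0.0143, range 4.42e-22 to 0.107). TLR2, a receptor for bacterial lipoproteins, had 148, 38.4 and 477 (edgeR adjusted p = 0.0273, range 2.87e-06 to 0.187). C1R and C1S, proteases of the first complement component, had untreated log2 ratios of -0.05 and -0.06.

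Some genes lay on opposite sides in the untreated and cGAMP pairs. PDGFB, a platelet-derived growth factor, had 937 counts in untreated WT/HAQ and 188 in HAQ/-, against 52 and 83 with cGAMP. EDN2, an endothelin, had 196 and 36, against 5 and 12. TBC1D3H and TBC1D3D, near-identical copies whose reads the counting can pass between them, had 1 and 59 counts in untreated WT/HAQ and 89 and 0 in HAQ/-. The gene ENSG00000277701, which has no symbol, had 19 and 285 counts untreated and 279 and 1 with cGAMP.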
